A study of Mus musculus with 48 samples.

Results

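The genes examined here encode the contractile apparatus that marks smooth muscle cells and activated myofibroblasts, and they were chosen by name, with earlier results of these data known: the actins Acta2 and Actg2, the myosin chains Myh11 and Myl9, the actin-binding and thin filament proteins Tagln, Cnn1, Tpm1, Tpm2 and Lmod1, and the coactivator Myocd. All 10 were found among the 55450 genes of each count table. RNA was sequenced from preadipocytes of the inguinal white fat depot (iWAT), cultured from C57BL/6 mice aged 8 to 12 weeks, and from mouse embryonic fibroblasts (MEFs) of the same strain, taken at mid-gestation. Cells were wild type (WT) or lacked Hmgn1 and Hmgn2 (DKO), whose products bind nucleosomes, in every cell of the animal. Day 0 followed confluence, by 2 days as the labels give it for preadipocytes and the methods for MEFs, while the methods name only confluence for preadipocytes. Insulin, dexamethasone, IBMX, T3 and rosiglitazone were then given for 4 days to preadipocytes and for 8 days to MEFs, followed by 4 days of insulin and T3, in both genotypes alike. Each genotype gave 3 libraries at days 0, 3, 6 and 9 (preadipocytes) and at days 0, 4, 8 and 12 (MEFs), 48 libraries in all. The study calls its replicates biological. Neither the labels nor the methods say whether they came from separate animals or cultures, so the p-values measure the spread between these libraries.

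In smooth muscle, thick filaments of myosin heavy and light chains pull on thin filaments of actin, and tropomyosin, calponin (Cnn1), transgelin (Tagln) and leiomodin (Lmod1) bind or organise the thin filament. Most of these genes carry a DNA element named the CArG box, to which serum response factor (SRF) binds. SRF is joined there by myocardin (Myocd), found in cardiac and smooth muscle, or by the related factors MRTF-A and MRTF-B, which stay in the cytoplasm while bound to monomeric actin and enter the nucleus when actin polymerises. Fibroblasts on stiff plates or under TGF-beta switch on a share of this program, with Acta2 as its usual marker, while MYH11 is mostly restricted to smooth muscle. Loss of actin stress fibres accompanies adipocyte differentiation.

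The libraries held 19809397 to 36006696 summed counts in preadipocytes and 18962483 to 33083213 in MEFs. Hmgn2 had at most 10 counts in a DKO library against at least 744 in a WT library. Hmgn1 had 1571 to 3493 counts in DKO libraries, and WT libraries held 1542 to 6120. Counts per gene do not resolve which exons were deleted. Levels are given as CPM, counts brought to a common library size by TMM, the trimmed-mean scaling of edgeR. Several libraries stood apart from their group. In preadipocytes, WT replicate 1 lay far above WT replicates 2 and 3 at days 6 and 9 for most of the contractile genes. In MEFs, the summed level of 7 adipocyte markers was 1857 CPM in WT replicate 1 at day 4 and 257 and 245 CPM in replicates 2 and 3, and at day 8 it was 548 CPM in WT replicate 2 and 849 CPM in DKO replicate 3 against 3729 to 7772 CPM in the other 4 libraries. The 7 fibroblast and adipose progenitor markers summed to 10960 to 12790 CPM in WT preadipocytes and to 13670 to 15260 CPM in WT MEFs at day 0. Macrophage and leukocyte markers summed to 23.7 to 51.7 CPM in these WT preadipocytes and to 1204 to 1407 CPM in these WT MEFs. For mesothelial markers the sums were 9.39 to 39.6 CPM and 156 to 264 CPM. The part of such cells in the contractile levels was not tested. The 6 skeletal muscle markers summed to at most 6.57 CPM in any library, with Myod1 at 0 counts in all preadipocyte libraries. Actn3 alone reached 6.54 CPM in preadipocytes. Of the 8 markers of pericytes and vascular smooth muscle, which do not include the genes examined, Higd1b had at most 2 counts anywhere, while Pdgfrb reached 910 CPM. In bulk RNA, fewer cells of a type and less RNA per cell cannot be told apart.

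Before induction the contractile genes were abundant in preadipocytes. Acta2 (chr19:34241090-34255590, minus strand, mm10), smooth muscle alpha-actin, had 2769, 3188 and 2779 CPM in WT replicates 1, 2 and 3 at day 0 and 3808, 2136 and 2737 in the DKO replicates. Tagln (chr9:45929619-45936058, minus strand), the actin-binding protein SM22, had 1632, 1792 and 1775 CPM in WT and 1734, 1399 and 1589 CPM in DKO cells. Its exons overlap those of Pcsk7 on the opposite strand. The libraries were strand-specific, while the strand setting of the counting was not stated. To compare genes, CPM were divided by the summed exon length. That length joins the exons of all annotated transcripts of a gene (6485 bases for Tpm1, 1162 for Myl9). Places per kilobase, here and below, depend on this divisor, since a single transcript can be shorter. Per kilobase, Acta2 came first in WT preadipocytes at day 0 (1326 CPM per kb), followed by Tagln (872), Myl9 (387), Tpm1 (199), Tpm2 (172), Cnn1 (148), Actg2 (73.5), Lmod1 (24.1), Myh11 (20.1) and Myocd (0.220). The ranges of the 3 libraries overlapped between Tpm1 and Tpm2, Tpm2 and Cnn1, and Lmod1 and Myh11, and these neighbours are therefore not ordered. Myocd, the master coactivator of smooth muscle, thus stood far below its targets, at 0.884 to 2.05 CPM in the 3 WT libraries.

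**Figure D1:**
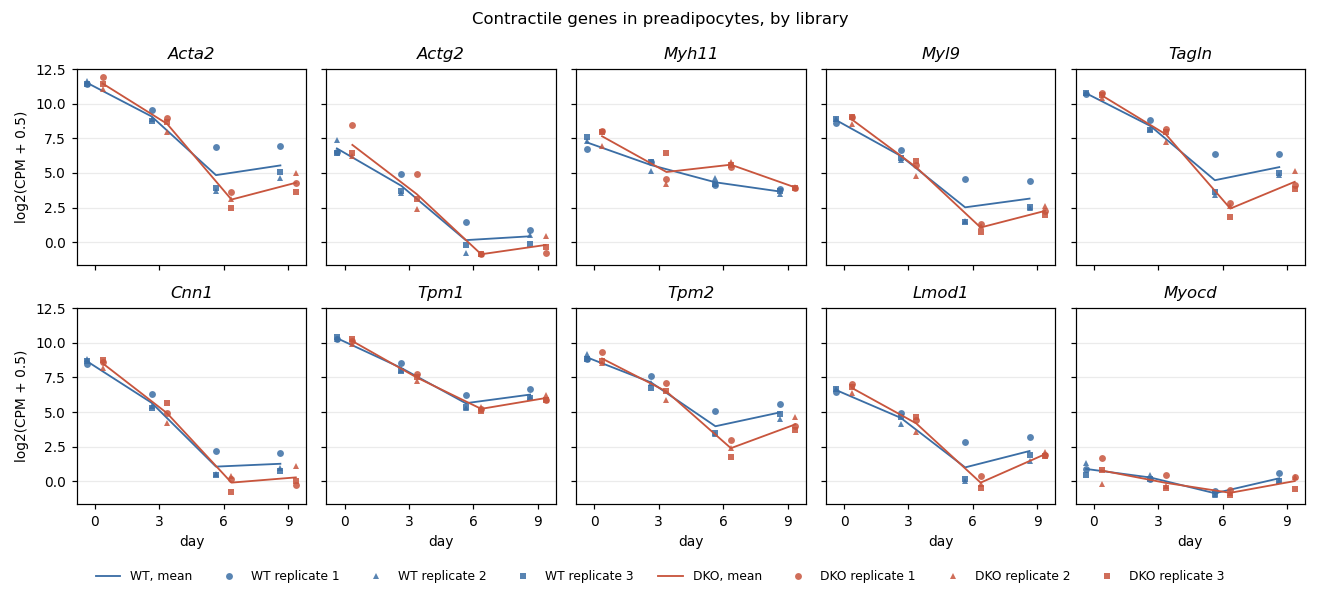
Levels of the 10 genes in preadipocytes, as log2 of CPM plus 0.5, by day (blue WT, red DKO). Each symbol is 1 library and lines join the means of the log2 values of 3 libraries. All genes are lower at day 6 than at day 0, WT replicate 1 (circles) lies above the other WT libraries at days 6 and 9 for most genes, and the DKO libraries of Myh11 lie above the WT libraries at day 6.

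WT MEFs held less of every contractile transcript than WT preadipocytes before induction, and DKO cells were not compared in this way. All 10 genes were called lower in WT MEFs than in WT preadipocytes at day 0, where 18.7% of 15726 tested genes were called lower. Here and below, a gene was called when its fold change reached 1.5 and its edgeR quasi-likelihood p, adjusted by the Benjamini-Hochberg method over all tested genes, was under 0.05. The donors were adult in one cell type and embryonic in the other, so the comparison is of these cultures. Cnn1 (chr9:22099216-22109630, plus strand), calponin, differed most: it had 355, 450.1 and 409 CPM in WT preadipocytes and 12.3, 2.98 and 12.9 CPM in WT MEFs, that is -5.61 ± 0.55 on the log2 scale (± standard error; adjusted p = 0.000395). Acta2 had 677, 435 and 695 CPM in WT MEFs, or -2.45 ± 0.19 on the log2 scale relative to preadipocytes (adjusted p = 2.98e-05). The values were -2.63 ± 0.60 for Actg2 (adjusted p = 0.0115), -2.09 ± 0.12 for Myl9 (adjusted p = 4.66e-06) and -2.44 ± 0.79 for Myh11 (adjusted p = 0.0401). Among the thin filament genes they were -2.50 ± 0.13 for Tagln (adjusted p = 3.25e-06), -1.45 ± 0.08 for Tpm1 (adjusted p = 4.6e-06), -2.25 ± 0.15 for Tpm2 (adjusted p = 1.39e-05) and -2.16 ± 0.29 for Lmod1 (adjusted p = 0.00123). Myocd had -1.95 ± 0.56 (adjusted p = 0.0167). MEF replicate 2 stood far below the other WT MEF libraries for some genes, as Myh11 had 44.4, 4.56 and 46.8 CPM and Actg2 27.5, 6.49 and 28.6 CPM in the 3 WT MEF libraries. The Myh11 call was lost with the replicate number as a block (adjusted p = 0.0518), without the filter on low counts (0.122) and in 5 of the 6 refits that omit 1 library (0.0624 to 0.137), the exception being the refit without MEF replicate 2. The Myocd call was lost without preadipocyte replicate 2 (adjusted p = 0.054) or MEF replicate 3 (0.0646).

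During the induced browning the contractile program fell steeply in preadipocytes. In WT cells 9, 10 and 9 of the 10 genes were called lower than at day 0 at days 3, 6 and 9, where 12.8%, 27.8% and 26.5% of 16877 tested genes were, and in DKO cells 10, 10 and 9 were, against 15.9%, 30.7% and 29.5% of all genes. None was called higher. Over the 10 genes the median log2 fold change in WT cells was -2.23, -5.41 and -4.77, where the median over all tested genes was 4e-04, -0.03 and -0.02, and in DKO cells it was -2.70, -8.02 and -5.58. Without WT replicate 1 of the later day, the WT median was -7.27 at day 6 and -5.48 at day 9. All these comparisons share the day 0 libraries of their genotype.

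Both smooth muscle actins fell at every later day. In WT preadipocytes Acta2 had 759.8, 479 and 438 CPM at day 3, 116, 12.8 and 14.9 at day 6 and 125, 24.2 and 32.6 at day 9. Relative to day 0 it fell, with log2 fold changes of -2.38 ± 0.71, -5.93 ± 0.83 and -5.59 ± 0.82 at days 3, 6 and 9 (adjusted p = 0.0121, 4.72e-06 and 7.94e-06). DKO cells had 508, 248 and 419, then 11.7, 8.41 and 5.06 and then 18.9, 31.0 and 11.9 CPM, and Acta2 fell, with log2 fold changes of -2.89 ± 0.72, -8.43 ± 0.94 and -7.14 ± 0.88 (adjusted p = 0.00306, 1.93e-07 and 8.08e-07). No library of days 6 and 9 reached the lowest library of day 3 of its genotype, and the WT libraries of day 6 spanned 12.8 to 116 CPM, with replicate 1 at the top. Without that library the WT log2 fold change was -7.67 ± 0.78 at day 6, and it was -6.68 ± 0.93 at day 9 without replicate 1 of day 9. The day 3 call in WT cells was lost without WT replicate 3 of day 3 (adjusted p = 0.055). Actg2 (chr6:83512905-83536265, minus strand), smooth muscle gamma-actin, had 90.3, 168 and 85.2 CPM at day 0 and 2.25, 0.0770 and 0.363 CPM at day 6 in WT cells. It fell, with log2 fold changes of -2.67 ± 0.70, -6.96 ± 0.93 and -7.00 ± 0.95 at days 3, 6 and 9 (adjusted p = 0.00536, 2.43e-06 and 2.94e-06). Without WT replicate 1 of day 6 the day 6 value was -8.96 ± 1.23. In DKO cells Actg2 fell, with log2 fold changes of -3.58 ± 0.73 and -8.58 ± 1.04 at days 3 and 9 (adjusted p = 0.000557 and 5.66e-07). At day 6 each DKO library held 1 count of it, so no fitted value is given, and the summed day 0 counts per library size were 3990-fold (95% counting interval 1360 to 19300) those of day 6.

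The myosin genes differed in the size of their log2 fold changes. Myl9 (chr2:156775420-156781658, plus strand), the smooth muscle regulatory light chain, had 389.7, 475 and 484 CPM at day 0 and 23.0, 2.46 and 2.22 CPM at day 6 in WT cells, and it fell, with log2 fold changes of -2.56 ± 0.63, -5.60 ± 0.74 and -5.42 ± 0.73 at days 3, 6 and 9 (adjusted p = 0.00346, 2.02e-06 and 2.8e-06). Without WT replicate 1 of the later day these were -7.53 ± 0.64 at day 6 and -6.44 ± 0.83 at day 9. In DKO cells it had 517, 378 and 521 CPM at day 0 and 1.96, 1.70 and 1.19 at day 6 and fell, with log2 fold changes of -3.42 ± 0.65, -8.19 ± 0.87 and -6.74 ± 0.79 (adjusted p = 0.000333, 9.21e-08 and 3.69e-07). Myh11 (chr16:14194535-14291372, minus strand), the smooth muscle myosin heavy chain, had the smallest log2 fold change at day 6 in both genotypes among the genes with a fitted value. It had 106, 156 and 198 CPM at day 0, 53.9, 35.0 and 55.3 at day 3, 17.3, 24.5 and 17.7 at day 6 and 13.6, 10.4 and 12.7 at day 9 in WT cells. In DKO cells these levels were 267, 122 and 247, then 23.0, 18.4 and 85.2, then 42.1, 55.6 and 47.2 and last 14.9, 15.4 and 14.7 CPM. The WT level went down at each step, while in DKO cells all 3 libraries of day 6 lay above 2 of the 3 libraries of day 3. The log2 fold changes were -1.67 ± 0.42, -2.95 ± 0.45 and -3.64 ± 0.47 (adjusted p = 0.00424, 1.16e-05 and 1.5e-06) in WT cells and -2.33 ± 0.43, -2.14 ± 0.43 and -3.82 ± 0.47 in DKO cells (adjusted p = 0.000247, 0.00021 and 6.68e-07).

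Of the thin filament genes, Cnn1 fell most. It had 3.94, 0.963 and 0.888 CPM in WT and 0.594, 0.769 and 0.0880 CPM in DKO cells at day 6, from 355 to 450.1 and 283 to 436 CPM at day 0. At days 3, 6 and 9 it fell, with log2 fold changes of -2.93 ± 0.48, -7.69 ± 0.62 and -7.60 ± 0.62 in WT cells (adjusted p = 9.82e-05, 3.44e-09 and 4.2e-09) and of -3.53 ± 0.49, -9.63 ± 0.72 and -8.81 ± 0.68 in DKO cells (adjusted p = 1.31e-05, 8.24e-10 and 1.25e-09). Tagln had 80.7, 10.4 and 12.1 CPM in WT and 6.80, 5.66 and 2.99 CPM in DKO cells at day 6. It fell, with log2 fold changes of -2.33 ± 0.61, -5.65 ± 0.72 and -5.18 ± 0.70 in WT cells (adjusted p = 0.00548, 1.32e-06 and 2.94e-06) and of -2.78 ± 0.63, -8.26 ± 0.82 and -6.17 ± 0.74 in DKO cells (adjusted p = 0.00131, 3.85e-08 and 4.88e-07). WT replicate 1 again held most of the WT transcript at day 6, and without it the WT log2 fold change of Tagln was -7.22 ± 0.62. At day 9 it was -5.84 ± 0.82 without replicate 1 of that day. The tropomyosins, which lie along the thin filament and are made in most cells, had smaller log2 fold changes than Cnn1 and Tagln at day 6. Tpm1 (chr9:67022590-67049406, minus strand) spanned 1253 to 1353 CPM at day 0 and 38.7 to 73.9 CPM at day 6 in WT libraries, against 976 to 1233 and 33.7 to 40.8 CPM in DKO libraries. It fell, with log2 fold changes of -2.14 ± 0.23, -4.65 ± 0.25 and -4.06 ± 0.25 in WT cells (adjusted p = 9.28e-07, 1.22e-11 and 4.9e-11) and of -2.63 ± 0.23, -4.92 ± 0.26 and -4.12 ± 0.25 in DKO cells (adjusted p = 5.7e-08, 3.36e-12 and 2.42e-11). Tpm2 (chr4:43514711-43523765, minus strand) spanned 450.4 to 585 CPM at day 0 and 9.93 to 32.9 CPM at day 6 in WT libraries, against 381 to 652 and 2.91 to 7.40 CPM in DKO libraries. It fell, with log2 fold changes of -1.79 ± 0.44, -4.81 ± 0.51 and -3.95 ± 0.49 in WT cells (adjusted p = 0.00349, 1.27e-07 and 9.32e-07) and of -2.35 ± 0.45, -6.57 ± 0.56 and -4.78 ± 0.51 in DKO cells (adjusted p = 0.000342, 5.18e-09 and 1.07e-07). Lmod1 (chr1:135324807-135368065, plus strand), which nucleates actin filaments in smooth muscle, spanned 85.2 to 101 CPM at day 0 and 0.501 to 6.50 CPM at day 6 in WT libraries, against 83.8 to 131 and 0.220 to 0.776 CPM in DKO libraries. It fell, with log2 fold changes of -1.99 ± 0.54, -5.21 ± 0.65 and -4.36 ± 0.62 in WT cells (adjusted p = 0.00705, 1.15e-06 and 5.76e-06) and of -2.55 ± 0.55, -7.86 ± 0.81 and -5.00 ± 0.64 in DKO cells (adjusted p = 0.00101, 6.64e-08 and 1.32e-06). Without WT replicate 1 of the later day, the WT log2 fold changes of days 6 and 9 were -7.32 ± 0.60 and -5.12 ± 0.73 for Lmod1 and -8.71 ± 0.70 and -8.25 ± 0.75 for Cnn1. That of Tpm2 was -5.55 ± 0.52 at day 6.

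Myocd (chr11:65176561-65269989, minus strand) was low throughout. Its WT libraries held 1.31, 2.05 and 0.884 CPM at day 0, 0.113, 0 and 0.0403 at day 6 and 0.993, 0.522 and 0.527 at day 9, and its DKO libraries 2.73, 0.377 and 1.29, then 0.137, 0.0550 and 0 and last 0.720, 0.755 and 0.173. At day 6 no library held more than 3 counts, so no fitted value is given. The summed counts of day 0 per library size were 27.5-fold (95% counting interval 10.4 to 103) those of day 6 in WT cells and 24.9-fold (95% counting interval 9.53 to 92.8) in DKO cells, and both differences were called (adjusted p = 0.000159 and 0.000226). At day 3 Myocd fell, with a log2 fold change of -1.66 ± 0.66, in DKO cells (adjusted p = 0.0438), a call that was lost without the filter on low counts, with only the libraries of both days and without any 1 of DKO replicates 1 and 3 of day 0 or 2 and 3 of day 3. Without DKO replicate 1 of day 0 it was -0.73 (adjusted p = 0.414). The log2 fold changes not called were -0.99 ± 0.65 (WT, day 3, adjusted p = 0.24), -1.06 ± 0.66 (WT, day 9, 0.16) and -1.43 ± 0.66 (DKO, day 9, 0.059).

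**Figure D2:**
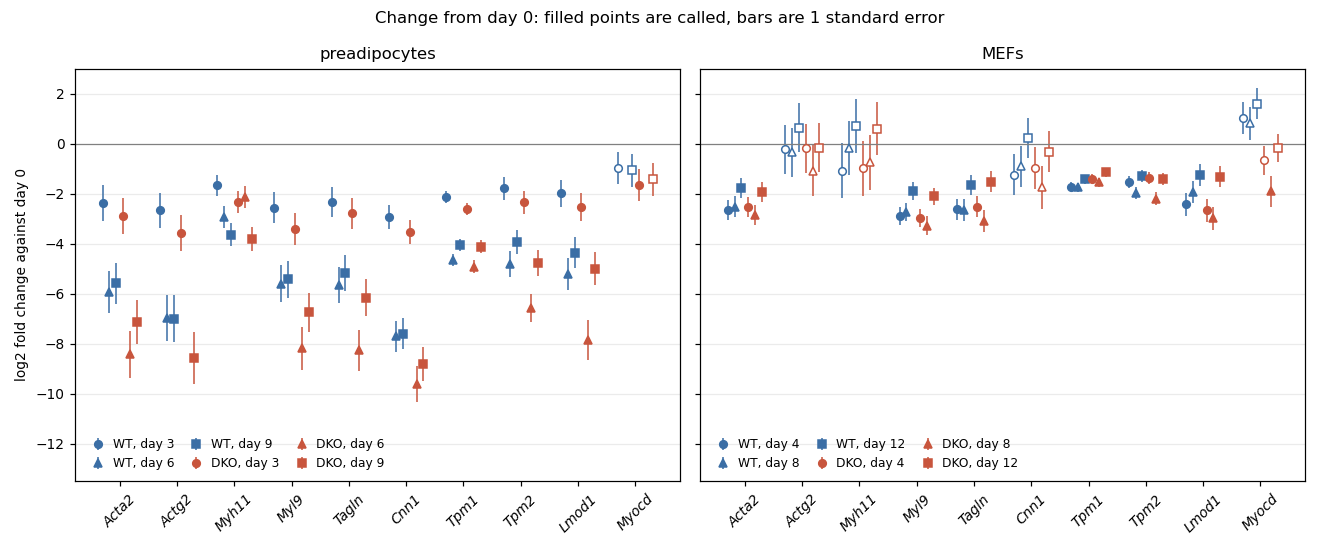
Log2 fold change of each gene against day 0 of the same genotype in preadipocytes (left) and MEFs (right), from edgeR's test, with bars of 1 standard error. Filled symbols were called, and genes with at most 3 counts in all libraries of the later group are left out. In preadipocytes all falls at day 6 that were fitted lie between -2.14 and -9.63, with Myh11 nearest to 0, and in MEFs Actg2, Myh11 and Cnn1 have open symbols at all days.

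The upstream sequence of these genes was searched for the CArG box. RefSeq promoters (GRCm38.p6, which is mm10, 250 bases before each start) were at hand for 6 of the 10 genes: Acta2, Cnn1, Lmod1, Myl9, Tpm1 and Tpm2. The pattern of the box reads the same on both strands, so each match counts for both. A perfect box was found in 1 of these 6 promoters (Myl9) and in 1.62% of 27025 promoters of the same length. A box with at most 1 letter off was found in 4 of the 6 (Acta2, Lmod1, Myl9 and Tpm1), and in 21.1% of all promoters. Such a match describes letters and not a bound site. The stretches below are shown because these 4 genes held such a match, with the box or its 1-letter-off form in capitals. The bases of that window before the annotated gene start are given for Myl9 (chr2:156775214-156775419, plus strand), where the first box is perfect and the second has 1 letter off, and for Lmod1 (chr1:135324563-135324806, plus strand), which holds a pair of boxes with 1 letter off. For Acta2 (chr19:34255438-34255467, minus strand, box 84 to 75 bases before the RefSeq start) and Tpm1 (chr9:67049415-67049444, minus strand, box 221 to 212 bases before it), 30 bases around 1 box with 1 letter off are given. The Acta2 stretch lies inside the gene as located above, since the RefSeq start used lies within it. A second box with 1 letter off, not shown, lay 34 to 25 bases before the start in Acta2 and 80 to 71 in Tpm1.
Myl9: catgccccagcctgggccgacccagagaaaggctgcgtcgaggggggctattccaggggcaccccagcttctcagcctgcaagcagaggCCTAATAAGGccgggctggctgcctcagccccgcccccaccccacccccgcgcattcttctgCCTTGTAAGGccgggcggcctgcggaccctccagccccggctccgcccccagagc
Lmod1: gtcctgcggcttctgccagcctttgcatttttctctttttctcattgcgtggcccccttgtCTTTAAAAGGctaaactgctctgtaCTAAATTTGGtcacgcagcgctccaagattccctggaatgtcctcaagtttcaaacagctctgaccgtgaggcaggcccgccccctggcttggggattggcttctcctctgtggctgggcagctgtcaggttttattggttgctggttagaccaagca
Acta2: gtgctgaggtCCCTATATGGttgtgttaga
Tpm1: gctcgggtccCCATATATAGtcatatccac

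Cnn1 and Tpm2, whose 250 bases held neither form of the box, fell as well, and at day 6 the fall of Cnn1 exceeded that of Myl9 in both genotypes.

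In MEFs fewer of the contractile genes were called lower after induction than in preadipocytes, and the difference between the cell types in these changes was not tested. In WT MEFs 6 of the 10 genes were called lower than at day 0 at each of days 4, 8 and 12, where 17.7%, 15.6% and 10.6% of 16996 genes were. In DKO MEFs 6, 7 and 6 were called lower, against 16%, 15.9% and 12.8% of all genes. The 6 were Acta2, Tagln, Myl9, Tpm1, Tpm2 and Lmod1 throughout, and Myocd was the seventh at day 8. Acta2 had 162, 59.7 and 62.2 CPM at day 4, 114, 82.5 and 119 at day 8 and 179.9, 173 and 175 at day 12 in WT MEFs, and 79.0, 72.5 and 128, then 44.6, 111 and 67.6 and last 166, 91.1 and 161 CPM in DKO MEFs. All libraries of day 12 lay below the lowest library of day 0, and the WT libraries of day 12 lay above those of day 4. Acta2 fell, with log2 fold changes of -2.67 ± 0.40, -2.52 ± 0.40 and -1.78 ± 0.39 in WT (adjusted p = 3.31e-05, 6.74e-05 and 0.00155) and of -2.52 ± 0.40, -2.85 ± 0.41 and -1.94 ± 0.39 in DKO MEFs (adjusted p = 6.43e-05, 2.16e-05 and 0.000585). For Tagln the levels at day 12 were 109, 108 and 114 CPM in WT and 102, 65.9 and 117 CPM in DKO MEFs. It fell, with log2 fold changes of -2.63 ± 0.43, -2.65 ± 0.43 and -1.65 ± 0.41 in WT (adjusted p = 6.6e-05, 7.58e-05 and 0.00394) and of -2.52 ± 0.43, -3.10 ± 0.44 and -1.52 ± 0.41 in DKO MEFs (adjusted p = 0.000113, 1.89e-05 and 0.00588). Myl9 fell, with log2 fold changes of -2.88 ± 0.36, -2.74 ± 0.36 and -1.90 ± 0.35 in WT (adjusted p = 4.46e-06, 9.19e-06 and 0.000313) and of -2.99 ± 0.37, -3.28 ± 0.37 and -2.11 ± 0.35 in DKO MEFs (adjusted p = 4.01e-06, 1.85e-06 and 8.98e-05). Tpm1 fell, with log2 fold changes of -1.72 ± 0.18, -1.75 ± 0.18 and -1.43 ± 0.18 in WT (adjusted p = 3.86e-07, 4.55e-07 and 5.64e-06) and of -1.40 ± 0.18, -1.54 ± 0.18 and -1.14 ± 0.17 in DKO MEFs (adjusted p = 4.21e-06, 1.64e-06 and 2.92e-05). Tpm2 fell, with log2 fold changes of -1.55 ± 0.24, -1.98 ± 0.24 and -1.30 ± 0.24 in WT (adjusted p = 3.59e-05, 3.87e-06 and 0.000285) and of -1.36 ± 0.24, -2.20 ± 0.25 and -1.41 ± 0.24 in DKO MEFs (adjusted p = 0.000146, 1.49e-06 and 0.000104). Lmod1 fell, with log2 fold changes of -2.44 ± 0.44, -1.92 ± 0.44 and -1.26 ± 0.43 in WT (adjusted p = 0.000196, 0.00158 and 0.0256) and of -2.67 ± 0.45, -2.98 ± 0.46 and -1.32 ± 0.43 in DKO MEFs (adjusted p = 0.000105, 4.19e-05 and 0.0173). The day 12 calls of Lmod1 were lost in WT cells without replicate 1 or 3 of day 0 or any library of day 12 (adjusted p = 0.0541 to 0.0804), and in DKO cells without replicate 3 of day 0 or 2 of day 12 (0.102 and 0.0752).

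The remaining genes had wide groups in MEFs. Myh11 had 44.4, 4.56 and 46.8 CPM at day 0, 32.7, 5.95 and 6.41 at day 4, 37.6, 9.15 and 38.8 at day 8 and 49.3, 51.8 and 53.9 at day 12 in WT MEFs. Its DKO levels were 5.57, 4.23 and 64.8, then 9.58, 2.77 and 25.7, then 11.0, 31.7 and 1.66 and last 46.2, 22.5 and 44.8 CPM. Low libraries, down to 1.66 CPM, occurred at days 0, 4 and 8 in both genotypes, and at day 12 the lowest held 22.5 CPM. WT replicates 2 and 3 at day 4, WT replicate 2 at day 8 and DKO replicate 3 at day 8, which were low in adipocyte markers, were also low in Myh11, Actg2 and Cnn1. The reverse held for DKO replicate 1 of day 8, which had the highest adipocyte sum of its day (7772 CPM) and yet only 11.0 CPM of Myh11, 1.31 CPM of Actg2 and 0.827 CPM of Cnn1. Actg2 had 27.5, 6.49 and 28.6 CPM in WT and 7.75, 2.47 and 31.1 CPM in DKO MEFs at day 0. Cnn1 had 12.3, 2.98 and 12.9 and 3.52, 2.34 and 15.1 CPM. For these 3 genes WT replicate 2 and DKO replicates 1 and 2 of day 0 were low together, and the WT replicate 2 library of day 0 also had less Acta2 than the other WT libraries. Against day 0 the log2 fold changes at day 12 were 0.70 ± 1.07 in WT and 0.60 ± 1.07 in DKO MEFs for Myh11, 0.64 ± 0.97 and -0.16 ± 0.99 for Actg2, and 0.23 ± 0.80 and -0.32 ± 0.82 for Cnn1, none called at any day (adjusted p at least 0.108). Standard errors of 0.80 or more leave changes of several fold undetected. Myocd had 0.770, 0.151 and 0.288 CPM at day 0 and 1.63, 1.198 and 0.924 at day 12 in WT MEFs (log2 fold change 1.60 ± 0.63, adjusted p = 0.0527). In DKO MEFs it had 0.251, 2.91 and 1.52 CPM at day 0 and 0.292, 0.495 and 0.444 at day 8, and fell, with a log2 fold change of -1.91 ± 0.62 (adjusted p = 0.017), or of -1.13 without DKO replicate 2 of day 0 (adjusted p = 0.15). That call was also lost without DKO replicate 1 of day 8 (0.0643) and with only the libraries of both days (0.13).

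**Figure D3:**
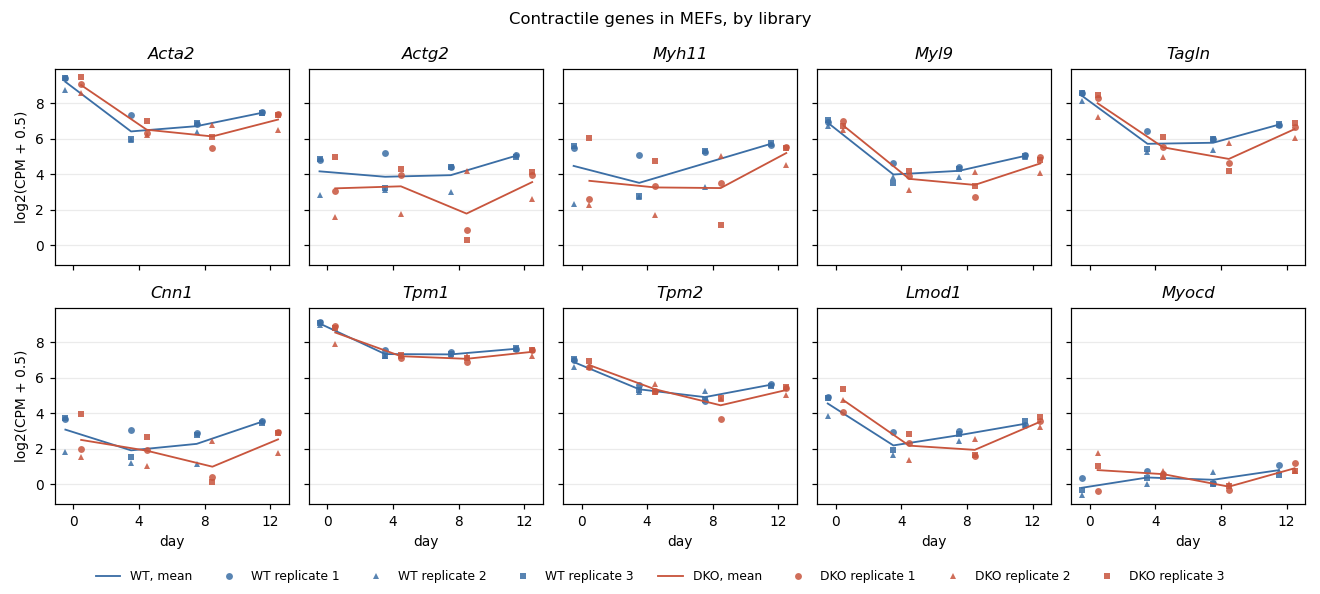
Levels of the 10 genes in MEFs, as log2 of CPM plus 0.5, by day (blue WT, red DKO). Each symbol is 1 library and lines join the means of the log2 values of 3 libraries. Acta2, Tagln, Myl9, Tpm1, Tpm2 and Lmod1 are lower at all later days than at day 0, while Actg2, Myh11 and Cnn1 spread widely between libraries of a group except in WT cells at day 12.

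Loss of HMGN1 and HMGN2 went with a higher Myh11 in preadipocytes at day 6. The WT libraries held 17.3, 24.5 and 17.7 CPM and the DKO libraries 42.1, 55.6 and 47.2 CPM, so every DKO library lay above every WT library. Its log2 fold change was 1.25 ± 0.15 (adjusted p = 0.0035), and Myh11 was the only one of the 8 tested genes to be called, where 11.6% of 14694 tested genes were called, 5.03% higher and 6.53% lower. It was called under all alternatives run, with log2 fold changes of 1.15 to 1.42 and adjusted p-values up to 0.0435. At day 9 the WT libraries held 13.6, 10.4 and 12.7 CPM and the DKO libraries 14.9, 15.4 and 14.7 CPM, again without overlap, with a log2 fold change of 0.26 ± 0.12 (adjusted p = 0.201). At days 0 and 3 the groups overlapped (log2 fold changes of 0.47 ± 0.35 and -0.18 ± 0.60, adjusted p = 0.779 and 0.946). Per kilobase, Myh11 took the first place in DKO cells at day 6 (6.35 CPM per kb, range 5.53 to 7.32), with overlap with Tpm1 (5.72, 5.20 to 6.30) and, narrowly, none with Acta2 (3.83, 2.31 to 5.34). In WT cells it was the sixth (2.61 CPM per kb), below Acta2 (21.7), whose range was 5.84 to 52.6.

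**Figure D4:**
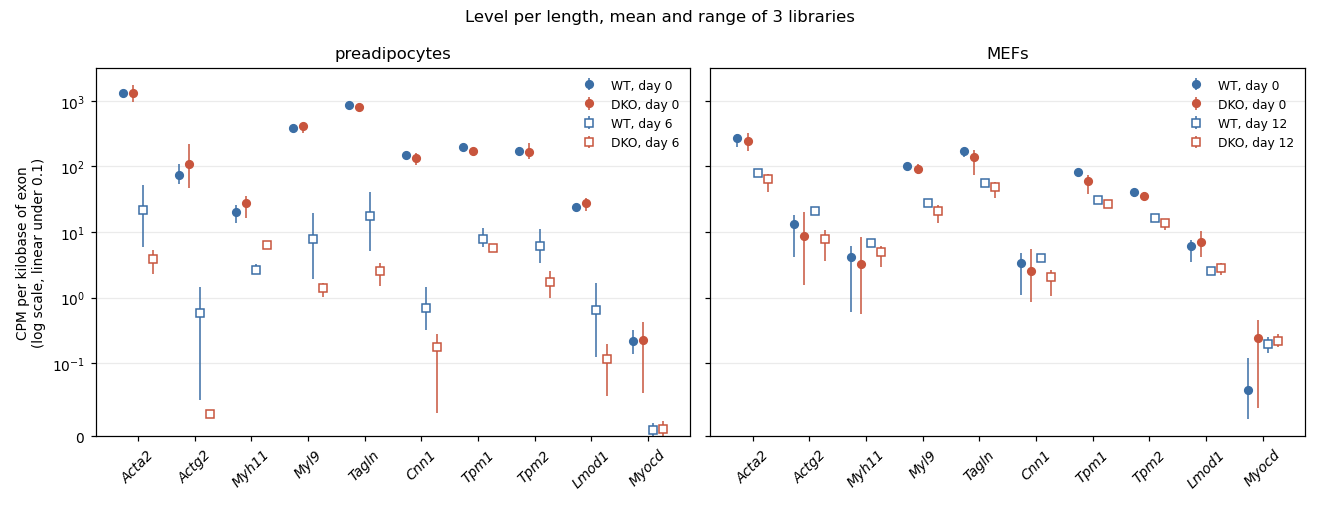
CPM per kilobase of exon of each gene (log axis, linear under 0.1) at day 0 (filled) and at day 6 of preadipocytes or day 12 of MEFs (open), blue WT and red DKO, as mean and range of 3 libraries. At day 0 Acta2 and Tagln come first in both cell types, and in DKO preadipocytes at day 6 Myh11 (6.35) stands above Acta2 (3.83).

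The other 7 genes tested at day 6 all had log2 fold changes below 0, and the size of the difference rested on WT replicate 1. Acta2 had 116, 12.8 and 14.9 CPM in WT and 11.7, 8.41 and 5.06 CPM in DKO cells. Its log2 fold change was -2.55 ± 1.01 (adjusted p = 0.128) and became -0.75 ± 0.33 without WT replicate 1 (adjusted p = 0.188). For Tagln the log2 fold change was -2.79 ± 0.97 (adjusted p = 0.095). It was -1.16 ± 0.31 without that library (adjusted p = 0.0601). Its 3 WT libraries, at 10.4 to 80.7 CPM, lay above its 3 DKO libraries, at 2.99 to 6.80 CPM. The groups did not overlap for Acta2, Tagln, Cnn1, Myl9 and Tpm2 either, 5 of 8 tested genes lower beside Myh11 higher, where 43% of all tested genes did not overlap in 1 direction or the other. Log2 fold changes with and without WT replicate 1 were -2.08 and -1.003 for Cnn1, -2.55 and -0.57 for Myl9, -1.86 and -1.06 for Tpm2, -0.51 and -0.15 for Tpm1, and -2.50 and -0.34 for Lmod1 (adjusted p from 0.0851 to 0.206 with it). Over the 8 genes the median was -2.29, and -0.66 without WT replicate 1, where that of all tested genes was -0.01. At an unadjusted p under 0.05 there were 5 of the 8, and 37.2% of all tested genes. DESeq2 called 5 of the 8 (Tagln, Cnn1, Tpm2 and Lmod1 lower, Myh11 higher) and 12.5% of all genes. A fit over all days of the cell type also called 5 (Acta2, Tagln, Myl9 and Tpm2 lower, Myh11 higher), and 9.09% of all genes. With the replicate number as a block 2 were called, Myh11 and Tpm2 (-1.74 ± 0.24, adjusted p = 0.0129), beside 9.85% of all genes. Actg2 and Myocd did not pass the filter. Actg2 had 2.25, 0.0770 and 0.363 CPM in WT libraries and 1 count in each DKO library, and its groups did not overlap.

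At the other days of preadipocytes no contractile gene was called between genotypes by edgeR. At day 0, 0 of 10 were called beside 0.218% of 15123 genes, none had an unadjusted p under 0.05 (7.86% of all genes), and DESeq2 and limma-voom called 0 (0.959% and 0.238% of all genes). The genotypes differed by -0.01 ± 0.21 for Acta2 on the log2 scale (adjusted p = 0.994) and by -0.14 ± 0.10 for Tagln (adjusted p = 0.775). Tpm1 alone did not overlap, spanning 976 to 1233 CPM without HMGNs against 1253 to 1353 CPM in WT cells, where 14.9% of genes did not. At day 3 all 10 log2 fold changes were below 0 with a median of -0.59, and 0 of 10 were called beside 0.337% of all genes, with 2 at an unadjusted p under 0.05 (12.2% of all genes). Acta2 had -0.51 ± 0.32 (adjusted p = 0.609) and Tagln -0.59 ± 0.30 (adjusted p = 0.517). Myl9 and Tpm1 were lower without overlap, where 18.5% of genes did not overlap, and Tpm1 was called by DESeq2 (-0.70 ± 0.20, adjusted p = 0.0175, beside 2.7% of all genes) and with the replicate block (-0.68 ± 0.10, adjusted p = 0.0395, beside 1.84%). At day 9, 0 of 10 were called beside 1.24% of 14700 genes, 1 had an unadjusted p under 0.05 (27.1% of all genes), and DESeq2 called Tpm2 (-0.93 ± 0.33, adjusted p = 0.0391) and 5.63% of all genes. Without DKO replicate 2, Cnn1 was called, beside 9.72% of all genes. Acta2 had -1.58 ± 0.68 (adjusted p = 0.198) and Tagln -1.17 ± 0.53 (adjusted p = 0.215), which became -0.49 ± 0.39 and -0.50 ± 0.40 without WT replicate 1. Myh11 was the only one without overlap at day 9, where 34.6% of genes did not overlap. A test of whether the DKO effect differed from that of day 0 called 0 of 10 genes at days 3, 6 and 9 beside 0.0948%, 3.29% and 0.415% of all genes, and 0, 5 and 0 had an unadjusted p under 0.05, beside 7.04%, 22.1% and 16.7% of all genes. Without WT replicate 1 of day 6, the median of this difference over the 10 genes at day 6 was -0.71 in place of -2.22. For Myh11 this difference was 0.81 ± 0.59 at day 6 (adjusted p = 0.449), and the higher level at day 6 is therefore not shown to differ from the genotype difference at day 0.

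**Figure D5:**
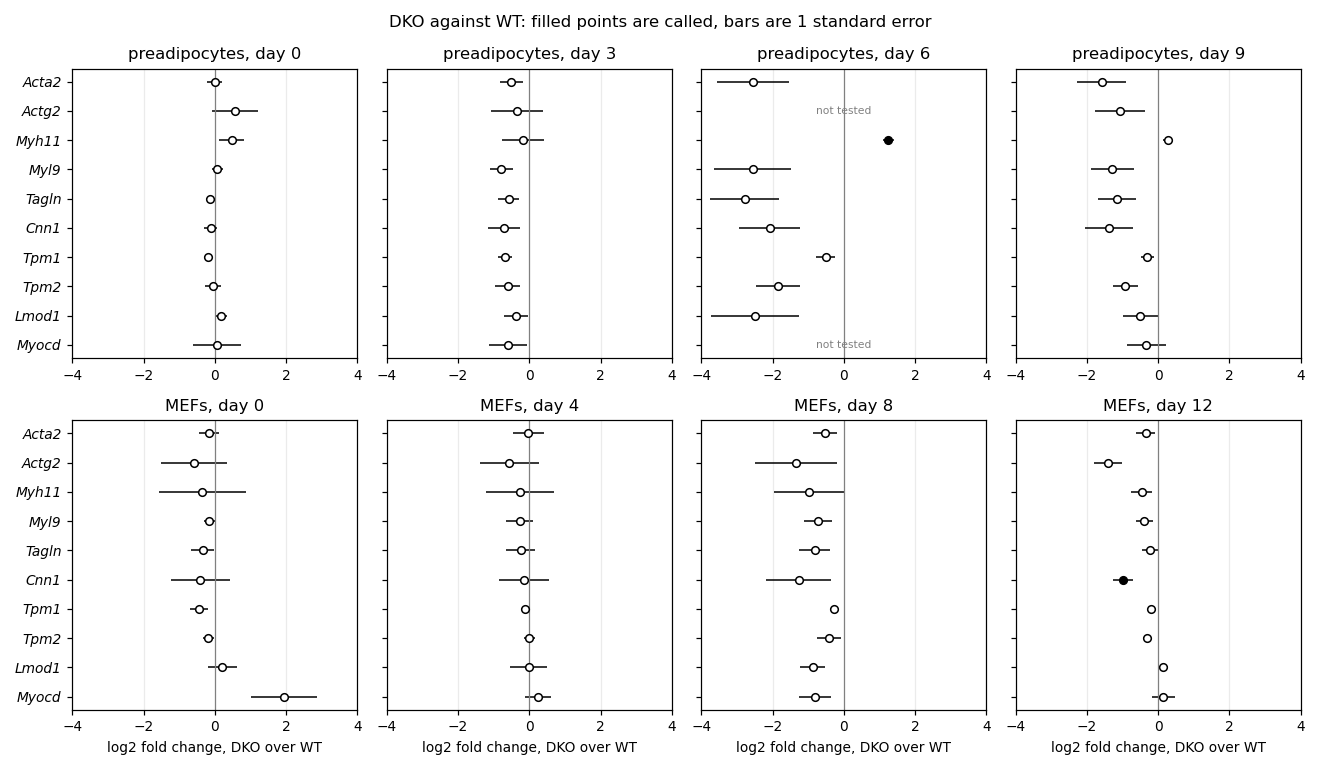
Log2 fold change of DKO over WT for each gene at each day, from edgeR's test within a day, with bars of 1 standard error. Filled points were called: Myh11 in preadipocytes at day 6 (1.25) and Cnn1 in MEFs at day 12 (-0.98), and the wide bars of the preadipocytes at day 6 come with 1 high WT library.

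In MEFs the genotypes differed for 1 contractile gene at day 12. Cnn1 had 11.4, 11.3 and 10.3 CPM in WT and 7.14, 2.88 and 6.84 CPM in DKO MEFs, a log2 fold change of -0.98 ± 0.29 (adjusted p = 0.0391), where 7.98% of 15319 genes were called, 3.92% higher and 4.05% lower. The call did not hold without WT replicate 1, 2 or 3 (adjusted p = 0.0999, 0.107 and 0.0825), without DKO replicate 3 (0.0507) or when all days entered 1 fit (0.589). Leaving out DKO replicate 2, the lowest library, gave a log2 fold change of -0.68 (adjusted p = 1.66e-05). Actg2 had 33.5, 33.3 and 30.8 CPM in WT and 15.0, 5.56 and 16.7 CPM in DKO MEFs, a log2 fold change of -1.41 ± 0.38 (adjusted p = 0.055). It was called by DESeq2, by limma-voom, with scaling by library size only and without DKO replicate 2, where 7.48%, 7.96%, 8.12% and 7.19% of all genes were. At an unadjusted p under 0.05 there were 4 of the 10 genes, and 42.3% of all genes. The log2 fold change was -0.36 ± 0.26 for Acta2 (adjusted p = 0.381), -0.24 ± 0.23 for Tagln (adjusted p = 0.509) and -0.47 ± 0.30 for Myh11 (adjusted p = 0.316). For 7 of the 10 genes, Acta2, Actg2, Myh11, Myl9, Cnn1, Tpm1 and Tpm2, the highest DKO library was under the lowest WT library, where 47% of all genes did not overlap in 1 direction or the other. DKO replicate 2 was the lowest of the 3 for each of these 7. The WT libraries were close to each other, with Acta2 at 173 to 179.9 CPM. Over genes, chi-square per degree of freedom was 2.1 to 3.4 between pairs of these WT libraries. Larger values mean less alike counts. It was 2.9 to 11.6 between the DKO pairs and 14.8 to 32.5 between WT preadipocyte pairs of day 6. The p-values and the missing overlap at day 12 depend on this narrow WT spread, whose source was not tested. WT MEF replicates 1 and 3 were as close at day 0 (3.2) and day 8 (2.1). Pairs with WT replicate 2 had 16.6 to 18.0 at day 0 and 82.2 to 88.2 at day 8. At day 4 WT replicates 2 and 3 had 6.3, and pairs with replicate 1 had 77.3 and 78.3. The median log2 fold change was -0.33 over the 10 genes, and 0.0015 over all genes.

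At days 0, 4 and 8 of MEFs, 0 of the 10 genes were called, beside 0.102%, 0.0905% and 0.0595% of all tested genes, and 0, 0 and 1 had an unadjusted p under 0.05 in edgeR's test, beside 9.28%, 5.91% and 8.57% of all genes. DESeq2 also called 0 of the 10, beside 1.06%, 0.588% and 0.642% of all genes, and so did limma-voom, beside 0.134%, 0.11% and 0.0926%. For Acta2 the log2 fold changes were -0.17 ± 0.28, -0.03 ± 0.44 and -0.52 ± 0.34 (adjusted p = 0.818, 0.993 and 0.728). Tagln had -0.35 ± 0.32, -0.24 ± 0.41 and -0.81 ± 0.43 (adjusted p = 0.687, 0.914 and 0.659). Myocd, at 0.251 to 2.91 CPM in DKO and 0.151 to 0.770 CPM in WT MEFs at day 0, had the widest difference there, 1.94 ± 0.92 (adjusted p = 0.536). Only Tpm1 did not overlap at day 0, and no gene at days 4 and 8, where 18.6%, 11.5% and 15.4% of all genes did not. The difference of the DKO effect from day 0 was called for 0 of 10 genes at days 4, 8 and 12, beside 0.00588%, 0% and 0.0353% of all genes, with 0, 1 and 1 at an unadjusted p under 0.05, beside 11.4%, 8.57% and 11.1% of all genes. The difference of the DKO effect between preadipocytes at day 6 and MEFs at day 12, a comparison chosen after the values were seen, was called for Myh11 among the 10 genes and for 1.59% of 16076 genes. It was 1.77 ± 0.34 for Myh11 (adjusted p = 0.0349), and it was lost in 7 of the 12 refits that omit 1 library (adjusted p = 0.0545 to 0.0947). With preadipocytes of day 9 in place of day 6, 0 of the 10 and 0.433% of 15939 genes were called (Myh11 0.76 ± 0.31, adjusted p = 0.339).

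Other genes of the same machinery were read from lists of names. Of 23 other genes of the contractile apparatus, 22 were tested over time, and 21 fell between days 0 and 6 of preadipocytes in each genotype, with a median log2 fold change of -2.84 in WT and -3.06 in DKO cells. Among all tested genes 27.8% in WT and 30.7% in DKO cells were called lower over these days. Between genotypes at day 6, 2 of 18 tested genes were called lower, Pdlim7 (-0.67 ± 0.11, adjusted p = 0.00723) and Synpo2 (-0.70 ± 0.19, adjusted p = 0.035), both actin-associated, and the median was -0.38. The shares of all tested genes between genotypes were 6.53% called lower and 5.03% called higher at day 6. In MEFs at day 12 these shares were 4.05% and 3.92%. Of 9 listed nonmuscle actin, myosin and tropomyosin genes 8 were in the tables, and 7 of them fell to day 6 in both genotypes, and among them Actb had a log2 fold change of -1.71 ± 0.11 and Myh9 of -2.67 ± 0.19 in WT preadipocytes. Their median of -2.08 in WT cells compares with -5.41 for the contractile genes. Between genotypes Tpm4 was called lower at day 6 (-0.70 ± 0.17, adjusted p = 0.0269) and none of 8 in MEFs at day 12. Of 15 striated muscle actins, myosins and troponins, 2 passed the filter at day 6, with no call, and 4 in MEFs at day 12, where embryonic myosin Myh3 was called higher in DKO cells (2.11 ± 0.67, adjusted p = 0.0246).

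A list of SRF and MRTF pathway genes had median changes nearer to 0. The list holds 23 genes, most of them regulators, but also targets such as Ccn2, so its counts and medians mix both. Of these, 10 fell and 2 rose between days 0 and 6 in WT preadipocytes, and 12 fell and 3 rose in DKO cells, with medians of -0.49 and -0.77. Of all 16877 tested genes, 4697 fell and 4098 rose in WT cells, and 5175 fell and 4575 rose in DKO cells. Srf itself had 35.3 ± 1.64 CPM (SD, n = 3) at day 0 and 15.3 ± 0.589 CPM at day 6 in WT cells, a log2 fold change of -1.21 ± 0.09, and for Mrtfa, which encodes MRTF-A, it was -1.13 ± 0.18. Ccn2, a secreted target of YAP and SRF signalling, fell (-6.91 ± 0.93), and Rhob and Limk1, which act on actin turnover, rose (1.21 ± 0.10 and 1.42 ± 0.15). Between genotypes at day 6, Klf4 (-0.90 ± 0.16, adjusted p = 0.0105), a factor that represses smooth muscle genes, Fhl2 (-1.25 ± 0.25, adjusted p = 0.0152) and Vgll3 (-1.22 ± 0.24, adjusted p = 0.0173) were lower in DKO cells, the 3 calls among 23, with a median of -0.06. Among all tested genes 11.6% were called, 6.53% of them lower as a share of all genes. Srf had 0.06 ± 0.10, adjusted p = 0.723. In MEFs at day 12 none of the 23 was called. Of 17 genes of myofibroblast activation and matrix, 8 were called lower in DKO preadipocytes at day 6, beside 6.53% of all tested genes, and none higher, with a median of -0.78. They were led by Col1a1 (-1.63 ± 0.10, adjusted p = 0.000234), Fap (-1.61 ± 0.17, adjusted p = 0.00214) and Col3a1 (-1.75 ± 0.19, adjusted p = 0.00264). In MEFs at day 12, 5 of 17 were lower, beside 4.05% of all tested genes, led by Col3a1 (-1.001 ± 0.05, adjusted p = 1.3e-09), Postn (-0.59 ± 0.04, adjusted p = 6.12e-08) and Col1a1 (-0.59 ± 0.05, adjusted p = 8.18e-08). Unlike Acta2, Col1a1 did not have a high WT replicate 1 at day 6, with 1416, 1296 and 1486 CPM in WT and 452, 494 and 442 CPM in DKO libraries.

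Markers of other cells are given beside the Myh11 difference, and their part in it was not tested. The sums follow their most abundant markers most. Over the preadipocyte libraries Pdgfrb reached 910 CPM, while the next pericyte marker, Mcam, reached 187 CPM. Fabp4 reached 21700 CPM among the adipocyte and Col1a2 12100 CPM among the fibroblast markers. The 8 pericyte and vascular smooth muscle markers summed to 134 to 149 CPM in WT and 109.6 to 152 CPM in DKO preadipocytes at day 6, down from 579 to 832 and 581 to 1224 CPM at day 0. Of the 6 that were tested at day 6, Cspg4, which encodes NG2, was called higher in DKO cells (1.46 ± 0.26, adjusted p = 0.00954) and Pdgfrb lower (-0.69 ± 0.13, adjusted p = 0.0117). Among all tested genes 5.03% were called higher and 6.53% lower. Rgs5 had at most 6 counts in a library at day 6, and Higd1b at most 2. The 7 adipocyte markers summed to 13200 to 16840 CPM in WT and 19540 to 24390 CPM in DKO cells, and the 7 fibroblast markers to 3319 to 4452 and 1760 to 2191 CPM. The 5 macrophage and leukocyte markers summed to 491 to 837 and 196 to 559 CPM, up from 15.0 to 28.2 and 13.8 to 24.7 CPM at day 3. In MEFs at day 12, where Cnn1 was lower, the pericyte sum was 433 to 441 CPM in WT and 396 to 424 CPM in DKO cells, the adipocyte sum 10070 to 10400 and 16070 to 17180 CPM and the fibroblast sum 8820 to 9127 and 5740 to 6857 CPM. The macrophage and leukocyte sum in MEFs at day 12 was 744 to 773 CPM in WT and 565 to 626 CPM in DKO cells. The 5 mesothelial markers reached at most 45.9 CPM in preadipocytes and 537 CPM in MEFs, the 5 endothelial markers 32.5 and 35.5 CPM, and the 4 epithelial markers 0.279 and 6.55 CPM. Krt19 alone, a mesothelial marker of the list, reached 43.4 CPM in preadipocytes.

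Across the 24 preadipocyte libraries the gene whose log2 level was most like that of Acta2 was Tagln (Pearson r = 0.996 over 16876 genes compared), followed by Csrp1 (0.995), Myl9 (0.995), Flna (0.991) and Actn1 (0.99). These libraries share their days and genotypes, so the correlations describe the time course. Myh11 (r = 0.731) and Myocd (0.749) were the least alike of the contractile genes, the remaining ones having r of 0.972 or more. In the 24 MEF libraries the most alike of 16995 genes were Myl9 (0.984), Tagln (0.97), Msrb3 (0.957), Plekhg2 (0.954) and Jup (0.953). Cnn1 (0.635), Actg2 (0.422), Myh11 (0.337) and Myocd (0.0406) were far from Acta2 there, and Tpm1, Tpm2 and Lmod1 were at 0.906 or more.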

How the data were processed

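The authors sequenced 50 bp paired-end strand-specific libraries, trimmed them with cutadapt 1.18, mapped them on mm10 with STAR 2.7.0f and deposited RSEM 1.3.0 expected counts per gene, not normalised. The kit named in the study's methods is for total RNA, while the labels say polyA RNA. Per cell type, 1 table of 24 libraries and 55450 genes was used. Expected counts were rounded to whole numbers and tested with the quasi-likelihood F-test of edgeR 4.0.16 (R 4.3.3) after filterByExpr (minimum count 10) and TMM scaling. Genotypes were compared within a day, and days and interactions within 1 fit per cell type. A gene was called at an adjusted p under 0.05 and a fold change of 1.5 or more. For edgeR, the standard error given is the size of the log2 fold change divided by the square root of its F statistic. It was thus derived from the test and not taken from the fit. Alternatives were DESeq2 1.42.0, limma-voom (limma 3.58.1, quantile normalization), library-size scaling, no filter, other sets of libraries, a replicate block and leaving out each library. Plots add 0.5 CPM before log2. A group with at most 3 counts in each library got a ratio of summed counts with an exact interval at 95% confidence, for counting error only. The steps were tested on simulated data. Named genes were all 10 members, Hmgn1 and Hmgn2, up to 3 called genes per direction and list at day 6 of preadipocytes and day 12 of MEFs, and the 5 genes most like Acta2, and any other gene was chosen after its values were seen. The members and lists were chosen with earlier results of these data known. Replicate numbers were not taken to pair the genotypes, since at no day did same-numbered WT and DKO libraries correlate above 0.1 in all 3 pairs. Some pairs did, as preadipocytes had 0.286, -0.267 and 0.524 at day 0 and 0.448, 0.036 and 0.543 at day 3. A shared source of these pairs was not tested. Between days 0 and 3, DKO preadipocytes correlated above 0.1 in all 3 pairs (0.562, 0.407 and 0.501), and there the block called the same number of members. The values of 1 listed gene are not reported here.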

Additional observations from a re-analysis of the deposited data

Results flagged for a closer look

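The DKO effect on Myh11 was called different between preadipocytes at day 6 and MEFs at day 12 in a test of the difference itself. It was 1.25 ± 0.15 on the log2 scale in preadipocytes at day 6 and -0.47 ± 0.30 in MEFs at day 12, where it was not called (adjusted p = 0.316), and the difference was 1.77 ± 0.34 (edgeR, adjusted p = 0.0349 over 16076 genes). The days and the pair of cell types were chosen after the values were seen. With scaling by library size only it was 1.67 (adjusted p = 0.0317), and without 1 library at a time it was 1.51 to 1.95. The call was lost without WT replicate 1 or 3 or DKO replicate 3 of preadipocytes, any WT replicate of MEFs, or DKO replicate 3 of MEFs (adjusted p = 0.0545 to 0.0947). With preadipocytes of day 9 in place of day 6 the difference was 0.76 ± 0.31 and not called (edgeR, adjusted p = 0.339). The compared cultures differ in day as well as in cell type, and these cannot be told apart.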

How the results depend on the processing

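Counts of contractile genes called moved in few settings over all comparisons. Most moves fell on preadipocytes at day 6 and MEFs at day 12, the genotype comparisons with a call. In preadipocytes, DESeq2 called 1 at day 3 and 1 at day 9 in place of 0, the replicate block 1 at day 3, and at day 6 DESeq2 called 5, 1 fit over all days 5 and the replicate block 2, in place of 1. In MEFs at day 12, DESeq2, library-size scaling and limma-voom called 2 and 1 fit over all days 0, in place of 1. Without 1 library at a time, the count ranged from 0 to 1 in preadipocytes at day 9 (1 without DKO replicate 2), from 0 to 2 in MEFs at day 12 (0 without any WT library or DKO replicate 3, 2 without DKO replicate 2), and from 0 to 1 for the DKO effect against day 0, in preadipocytes at day 6 (1 without WT replicate 2 of day 6) and in MEFs at day 8 (1 without DKO replicate 1 of day 0). Uncalled values changed sign for Acta2 in preadipocytes at day 0 (0.0086 without the filter, -0.25 to 0.17 without 1 library), Acta2 in MEFs at day 0 (-0.41 to 0.0319 without 1 library) and at day 4 (0.12 by limma-voom, 0.10 with the replicate block, -0.32 to 0.60 without 1 library), and Tagln in MEFs at day 4 (-0.56 to 0.23 without 1 library). The cause was not tested. In all, 120 counts stayed within 1.5 times and 10 moved under other settings, as did 190 and 8 with 1 library left out. The counts that stayed include those that were 0 in both settings. The share of all genes called is given above for part of these settings only. A moved count is therefore not read as particular to the contractile genes. The replicate block, changed no other count of calls between genotypes. Same-numbered preadipocyte libraries of days 6 and 9 deviated together (r = 0.13 to 0.459), so these days are not independent. Depth limits Actg2 and Myocd most, since at day 6 of preadipocytes they held at most 3 counts in each library of 1 or both genotypes.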
